A study of Mus musculus with 16 samples.

Results

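The 10 genes described here encode abundant chaperones and folding enzymes of the endoplasmic reticulum (ER): Hsp90b1, Hspa5, Hyou1, Pdia3, Pdia4, Pdia6, Calr, Manf, Sdf2l1 and Dnajb11. They were chosen with earlier results of these data known and taken by name from a hypothalamic count table of 24047 genes. All 10 were found in it, and all 10 were among the 14775 genes with enough counts to be tested. The table holds 16 bulk RNA-seq libraries from the hypothalamus of C57BL/6J mice made obese by a high-fat diet, 4 in each of 4 groups. All mice had a week of daily DMSO injections before 4 days of treatment. Veh mice then received DMSO and CS mice celastrol at 100 µg per kg per day by intraperitoneal injection, both with free access to food. The other groups were held to 0.5 g of the diet daily, below the 0.8 g average intake under celastrol: PF with DMSO, PF+CS with celastrol. Tissue was collected 6 h after the last morning injection. Celastrol is a plant triterpenoid that lowers food intake and body weight in obese mice, and the pair-fed arms were included to separate the drug from the reduced intake. The labels used here name no sex, age, cage or litter. The p-values test group differences against the spread between these libraries, estimated over all 4 groups together.

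Secreted and membrane proteins fold in the lumen of the ER, where chaperones of the HSP70 and HSP90 classes hold unfolded chains, protein disulfide isomerases form and shuffle disulfide bonds, and lectin chaperones retain immature glycoproteins. When unfolded proteins accumulate, the sensors IRE1, PERK and ATF6 start the unfolded protein response, and ATF6 and XBP1 raise transcription of these chaperone genes through ER stress response elements (ERSE) in their promoters. In the hypothalamus of obese rodents, ER stress has been linked to leptin resistance, and celastrol was described as a leptin sensitiser.

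The names of the groups carry a conflict that touches every direction given here. For well-expressed genes, the mean level in the 5 comparison tables deposited by the authors equals the mean of 8 count columns to within a relative error of 5.0e-15. By that match, 3 of the 5 tables are named for other groups than the columns they were made from. All 5 names match if the columns PF and CS are exchanged. Groups are therefore given as the count columns are labelled. If the table names are right instead, what is reported as CS is PF and the reverse: CS minus PF changes sign, CS minus Veh trades places with PF minus Veh, and PF+CS minus CS trades places with PF+CS minus PF. PF+CS minus Veh and the interaction do not change.

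The promoters are shown first because an ERSE marks several of them. RefSeq promoter windows (GRCm38.p6, 250 bases before to 50 bases after the start) were matched for 8 of the 10 genes; Hyou1 and Manf had no entry. The ERSE was searched on both strands as its half-sites CCAAT and CCACG with 9 free bases between them. It was found in 4 of the 8 windows, against 39 of all 32817 windows (0.119%). As given above, the element is already known from promoters of these chaperone genes, so the shares only describe the windows. Hsp90b1 held 2 copies, at −212 to −194 on the strand of the gene and at −107 to −89 on the opposite strand. Hspa5 held 1 at −65 to −47, Pdia6 1 at −98 to −80, and Calr 1 at −162 to −144 on the opposite strand. The 250 bases before the start of these 4 genes are given 5′ to 3′ on the strand of the gene, with the ERSE half-sites in capitals. Their positions are chr10:86705445-86705694 on the minus strand for Hsp90b1, chr2:34771840-34772089 on the plus strand for Hspa5, chr12:17266339-17266588 on the plus strand for Pdia6 and chr8:84846932-84847181 on the minus strand for Calr. The starts are those of RefSeq, and the gene positions given below are those of GENCODE. By GENCODE, each of these 4 genes begins within the printed bases. Hspa5 begins there at 34771970, so its ERSE lies inside that span.
Hsp90b1: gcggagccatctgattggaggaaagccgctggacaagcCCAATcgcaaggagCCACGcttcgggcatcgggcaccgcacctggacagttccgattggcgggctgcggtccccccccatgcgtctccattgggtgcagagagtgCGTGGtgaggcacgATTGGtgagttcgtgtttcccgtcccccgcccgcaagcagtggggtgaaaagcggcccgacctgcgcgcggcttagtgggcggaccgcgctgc
Hspa5: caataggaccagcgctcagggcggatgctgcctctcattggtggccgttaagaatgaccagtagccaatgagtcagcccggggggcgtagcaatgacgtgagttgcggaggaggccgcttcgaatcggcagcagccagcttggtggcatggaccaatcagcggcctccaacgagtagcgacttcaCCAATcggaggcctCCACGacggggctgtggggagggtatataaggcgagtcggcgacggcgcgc
Pdia6: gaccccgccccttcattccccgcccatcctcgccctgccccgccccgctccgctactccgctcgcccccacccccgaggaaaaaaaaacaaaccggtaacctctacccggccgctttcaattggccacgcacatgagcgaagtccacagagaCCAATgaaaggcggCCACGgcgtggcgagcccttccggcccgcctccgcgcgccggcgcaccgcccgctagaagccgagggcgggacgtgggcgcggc
Calr: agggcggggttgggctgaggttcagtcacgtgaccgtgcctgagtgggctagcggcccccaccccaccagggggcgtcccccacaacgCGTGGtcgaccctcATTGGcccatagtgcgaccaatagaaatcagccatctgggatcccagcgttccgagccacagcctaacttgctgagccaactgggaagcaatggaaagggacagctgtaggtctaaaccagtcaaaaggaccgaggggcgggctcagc

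The second form, ERSE-II (ATTGG, 1 free base and CCACG, both strands), was present in Dnajb11 at 7 to 17 bases after the start and in 0.0366% of all windows. The single half-sites were common: CCAAT occurred on either strand in 8 of the 8 windows and in 37.4% of all windows, and CCACG in 7 of 8 and in 32.8%. Both are contained in an ERSE and so are counted again there. Pdia3, Pdia4 and Sdf2l1 held half-sites without a full ERSE in this strict spelling. The UPR element TGACGTGG and the cAMP response element TGACGTCA, both strands, were in 0 of the 8 windows and in 0.676% and 1.79% of all windows. Among the other lists, an ERSE was found in 4 of 22 matched genes of other ER folding factors and in 0 of 14 cytosolic chaperones. It was also in 2 of 12 genes of ER-associated degradation, and an ERSE-II in 1 of those 12 and in 1 of 8 oligosaccharyltransferase genes. These matches describe letters in a window and say nothing of whether a factor bound there.

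**Figure D1:**
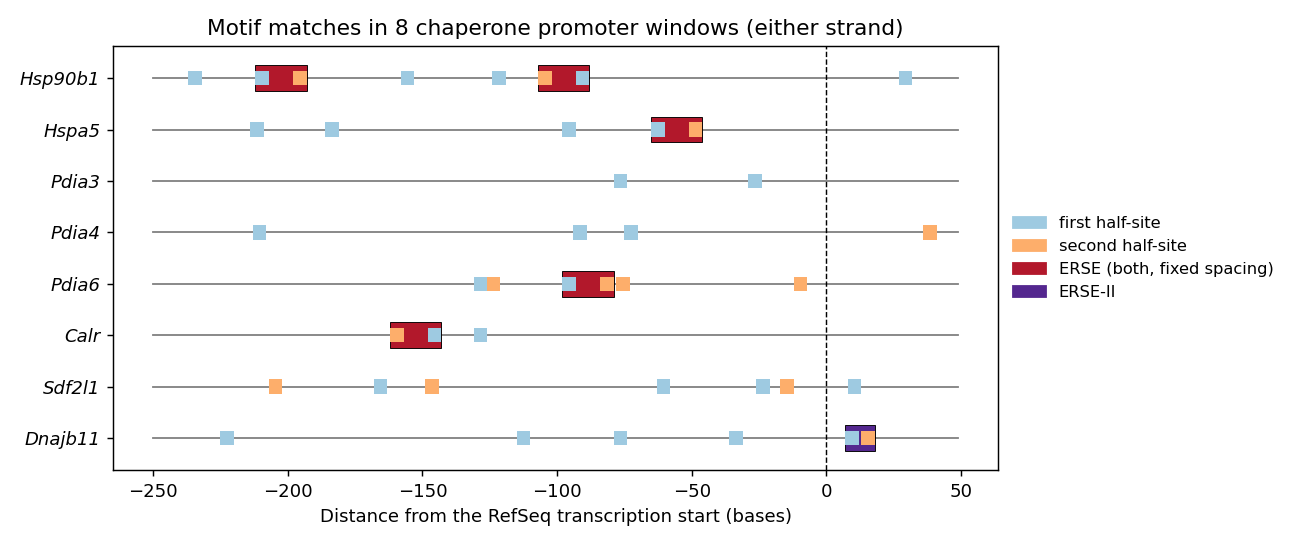
Positions of ERSE, ERSE-II and single half-site matches in the promoter windows of the 8 matched chaperone genes; the x axis is the distance from the RefSeq start in bases. ERSE matches lie within 212 bases before the start in Hsp90b1, Hspa5, Pdia6 and Calr, and Dnajb11 has an ERSE-II just after it.

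Library totals ranged from 6008564 counts (PF 1) to 12880459 (Veh 3), and 16998 to 17961 genes had a count. The 10 chaperones together held 0.175 to 0.222% of each library, and the smallest count of any of them was 43. None of 12 markers of hypothalamic neuroendocrine neurons was at 0 in all libraries. The same held for 8 pituitary markers, so that criterion alone does not check the tissue. Summed per library, the neuroendocrine markers were at 695 to 902 CPM and the pituitary markers at 12.2 to 27.4. In bulk tissue, fewer cells of a type and less RNA per cell cannot be told apart. Levels are in CPM, counts scaled to library size by TMM. Differences are log2 changes from edgeR, with a standard error (SE) computed from the change and its F statistic. A gene was called at a Benjamini-Hochberg adjusted p of at most 0.05 over the 14775 genes.

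Per length, on the deposited FPKM scale, the mean level over the 16 libraries was highest for Hsp90b1 at 63.7, Calr at 58.4 and Hspa5 at 50.2. Pdia3 followed at 30.6 FPKM. Pdia6, Hyou1 and Pdia4 were at 16.2, 16.1 and 9.95 FPKM. The lowest levels were those of Manf at 6.46, Dnajb11 at 6.45 and Sdf2l1 at 2.86 FPKM.

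Most of the chaperones were lower in the CS libraries than in the PF libraries. These groups differed in both celastrol and feeding, so this contrast does not separate the drug from the ration. All 10 log2 changes were below 0, as were 52.8% of those of all tested genes, with a median of −0.26 against −0.0088 over all tested genes. By edgeR, 8 of the 10 fell, while 2.23% of all tested genes were called lower. Because the 10 were chosen with earlier results known, the shares over all genes describe the set and do not test it. The 8 were Hsp90b1, Hspa5, Hyou1, Pdia3, Pdia4, Pdia6, Calr and Sdf2l1. Manf and Dnajb11 did not pass. In 7 of the 10 genes the 4 CS libraries lay below all 4 PF libraries in CPM, which 6.04% of the tested genes did. The summed level of the 10 genes was 1762 ± 27.0 CPM in CS, 1860 ± 75.3 in Veh, 1952 ± 133 in PF+CS and 2087 ± 119.8 in PF (SD, n = 4). The count of 8 rests on single libraries: it was 5 without Veh 2, 4 without PF 1, 5 without PF 2, 2 without PF 4, 3 without CS 1, 4 without CS 2, 4 without CS 3, 4 without CS 4, 5 without PF+CS 1 and 5 without PF+CS 2, and at least 6 without any other library. DESeq2 and a fit with no filter on low counts called 7 each, and voom 6. On FPKM values 2 were called, with a replicate block 5, with a length and GC offset 5, and 3 without the 5 libraries low in meningeal markers.

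The group means followed the same order in most of the genes. PF was the highest of the 4 groups in 10 of 10 genes and CS the lowest in 9, with Veh lowest for Dnajb11. The full order CS, Veh, PF+CS, PF from low to high was found in 8 genes. Neighbouring groups in that order were mostly not separated: of the steps from CS to Veh, Veh to PF+CS and PF+CS to PF, only Hyou1 (CS to Veh) and Hsp90b1 (Veh to PF+CS) passed the edgeR test.

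**Figure D2:**
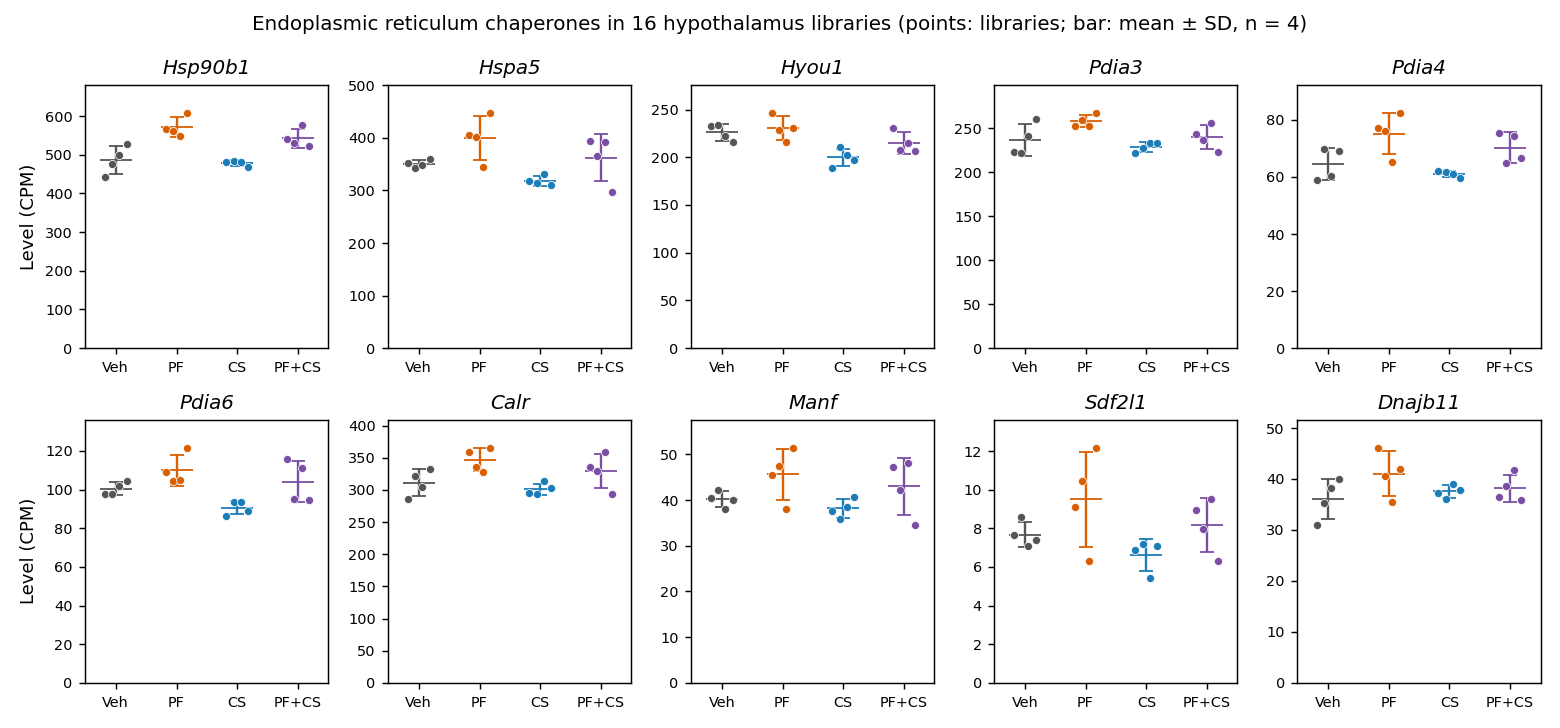
Level of each chaperone in CPM by group; points are single libraries and bars the mean and SD of 4. PF holds the highest mean in all 10 genes and CS the lowest in 9, with Veh lowest for Dnajb11.

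Hsp90b1 encodes GRP94, the HSP90 of the ER lumen, (chromosome 10, 86690209 to 86705509); positions are those of GENCODE M21 on GRCm38, where all 10 genes are protein-coding. It was at 443, 476, 499 and 527 CPM in the Veh libraries, 567, 561, 547 and 608 in PF, 482, 485, 480.1 and 469 in CS and 541, 529.8, 576 and 522 in PF+CS. Every CS library lay below every PF and every PF+CS library, and the PF libraries lay above all Veh libraries. Hsp90b1 fell by 0.25 (SE 0.042, adjusted p = 0.00102, edgeR) in CS against PF, and this call held in all 10 other settings and without any 1 of the 16 libraries. It also rose by 0.23 in PF against Veh (SE 0.042, adjusted p = 0.00268), a call lost only on FPKM values (adjusted p = 0.0613). In the pseudogene 1810014B01Rik, which overlaps it on the other strand, 20 to 65 counts were listed.

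Hspa5 encodes BiP, the HSP70 of the ER lumen and the chaperone that restrains the 3 stress sensors (chromosome 2, 34771970 to 34777547). It was at 353, 343, 348 and 359 CPM in the Veh libraries, 405, 401, 345 and 447 in PF, 318, 315, 332 and 310.0 in CS and 394, 365, 391 and 298 in PF+CS. The 4 CS libraries lay below all PF and all Veh libraries, PF 3 lay among the Veh libraries, and PF+CS 4 lay below every other library. Hspa5 fell by 0.33 (SE 0.084, adjusted p = 0.0483, edgeR) in CS against PF. That call was lost without Veh 1, Veh 2, Veh 3, Veh 4, PF 1, PF 2, PF 4, CS 1, CS 2, CS 3, CS 4, PF+CS 1, PF+CS 2 or PF+CS 3 (adjusted p from just above 0.05 to 0.149) and in 7 of 10 other settings (adjusted p 0.0503 to 0.107). Hyou1, an HSP110-class nucleotide exchange factor for BiP, was at 233, 234, 222 and 215 CPM in the Veh libraries, 246, 229, 216 and 231 in PF, 189, 211, 202 and 198 in CS and 230.5, 207, 215 and 207 in PF+CS (chromosome 9, 44379490 to 44392369). The 4 CS libraries lay below all Veh and all PF libraries and overlapped those of PF+CS. Hyou1 fell by 0.20 (SE 0.044, adjusted p = 0.00857, edgeR) in CS against PF. The call was lost without CS 1 (adjusted p = 0.057) and on FPKM values (adjusted p = 0.106).

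The protein disulfide isomerases form, break and reshuffle disulfide bonds in new proteins. Pdia6 (chromosome 12, 17266545 to 17284770) was at 97.5, 97.8, 102 and 104 CPM in the Veh libraries, 109, 104, 105 and 122 in PF, 86.4, 93.6, 93.5 and 89.1 in CS and 116, 95.1, 111 and 94.9 in PF+CS. All CS libraries lay below all PF libraries. Pdia6 fell by 0.28 (SE 0.059, adjusted p = 0.00757, edgeR) in CS against PF, in all 10 other settings, but not without PF 4 (adjusted p = 0.0604). Pdia4, also known as ERp72 (chromosome 6, 47796141 to 47813430), was at 59.1, 69.8, 60.3 and 69.2 CPM in the Veh libraries, 77.2, 76.2, 65.2 and 82.4 in PF, 62.1, 61.6, 61.1 and 59.6 in CS and 75.4, 64.8, 74.5 and 66.6 in PF+CS. The CS libraries lay below all PF and all PF+CS libraries, and PF 4 was the highest library. Pdia4 fell by 0.31 (SE 0.067, adjusted p = 0.00869, edgeR), and did not pass without PF 4 (adjusted p = 0.0666), on FPKM values (adjusted p = 0.0707) or without the 5 libraries low in meningeal markers (adjusted p = 0.079). Pdia3, ERp57, which works with calreticulin on glycoproteins, was at 223, 221, 241 and 261 CPM in the Veh libraries, 253, 259, 253 and 267 in PF, 221, 228, 233 and 233 in CS and 244, 236, 256 and 223 in PF+CS (chromosome 2, 121413775 to 121438687). The CS libraries lay below all PF libraries and overlapped those of Veh and PF+CS. Pdia3 fell by 0.17 (SE 0.046, adjusted p = 0.029, edgeR), a call lost without PF 1, PF 2, PF 4, CS 1, CS 2, CS 3 or CS 4 (adjusted p 0.0555 to 0.14), on FPKM values (adjusted p = 0.0735) and without the libraries low in meningeal markers (adjusted p = 0.0918). Catsper2 overlaps Pdia3 (33 to 101 counts) and Atp6v1c2 overlaps Pdia6 (14 to 36 counts); the strand of counting is not stated.

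Calr encodes calreticulin, a calcium-binding lectin chaperone that retains unfolded glycoproteins (chromosome 8, 84841850 to 84846934). It was at 286, 322, 305 and 333 CPM in the Veh libraries, 359.5, 337, 328 and 365 in PF, 296, 294, 313 and 302 in CS and 336, 329, 359 and 294 in PF+CS. The CS libraries lay below all PF libraries and overlapped those of Veh and PF+CS. Calr fell by 0.20 (SE 0.053, adjusted p = 0.0317, edgeR) in CS against PF. The call was lost without Veh 2, Veh 3, PF 1, PF 4, CS 1, CS 2, CS 3, CS 4, PF+CS 1 or PF+CS 2 (adjusted p 0.0541 to 0.158) and in 4 of 10 other settings (adjusted p 0.0716 to 0.116).

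Sdf2l1, Manf and Dnajb11 assist the BiP cycle. Sdf2l1 is a partner of the J-domain protein Dnajb11 that keeps folding proteins soluble. It was at 7.66, 8.59, 7.06 and 7.39 CPM in the Veh libraries, 9.12, 10.4, 6.33 and 12.2 in PF, 6.87, 7.19, 5.42 and 7.07 in CS and 8.94, 7.99, 9.5 and 6.30 in PF+CS (chromosome 16, 17130138 to 17132383). The CS mean was the lowest, but PF 3 lay among the CS libraries. Of the 10 genes, Sdf2l1 had the largest change in CS against PF and the largest SE. Sdf2l1 fell by 0.56 (SE 0.16, adjusted p = 0.0425, edgeR), a call lost without Veh 2, Veh 4, PF 1, PF 2, PF 4, CS 1, CS 2, CS 3, CS 4, PF+CS 1 or PF+CS 2 (adjusted p 0.0515 to 0.264) and in 7 of 10 other settings (adjusted p 0.0528 to 0.14). Manf, a small secreted protein that binds BiP and was first described as a neurotrophic factor, was at 40.4, 42.3, 38.1 and 39.9 CPM in the Veh libraries, 45.6, 47.5, 37.99 and 51.4 in PF, 37.7, 35.8, 38.5 and 40.8 in CS and 47.2, 42.2, 48.2 and 34.4 in PF+CS (chromosome 9, 106838312 to 106891979). PF 3 lay among the CS libraries and the other PF libraries above them. Manf did not pass in CS against PF, at log2 −0.26 (95% interval −0.44 to −0.089, adjusted p = 0.103), but did without PF 3 (adjusted p = 0.0198), without PF+CS 4 (adjusted p = 0.0316), with CS and PF compared alone (adjusted p = 0.0471) and with a meningeal covariate (adjusted p = 0.0393). Rbm15b overlaps Manf and had 210 to 476 counts, so reads from where the 2 genes overlap cannot be told apart and the Manf values are uncertain. Dnajb11, the ER HSP40, was at 30.9, 35.2, 38.1 and 39.9 CPM in the Veh libraries, 46.1, 40.6, 35.5 and 42.0 in PF, 37.3, 36.1, 39.1 and 37.9 in CS and 36.5, 38.6, 41.8 and 35.9 in PF+CS (chromosome 16, 22857845 to 22879634). PF 3 was below every CS library, so the groups overlapped. Dnajb11 differed by log2 −0.12 (95% interval −0.27 to 0.024, adjusted p = 0.399).

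In PF against Veh, Hsp90b1 and Pdia4 rose, 2 of 10, while 2.36% of tested genes were called higher. All 10 changes were above 0, as were 49.8% of all tested, with a median of 0.18; 9 had an unadjusted p of at most 0.05, as did 18.5% of all tested. Pdia4 rose by 0.23 (SE 0.066, adjusted p = 0.0497, edgeR). That call was lost without Veh 1, Veh 2, Veh 3, PF 1, PF 2, PF 4, CS 1, CS 2, CS 3, CS 4, PF+CS 1 or PF+CS 3 (adjusted p 0.0501 to 0.252), so that Hsp90b1 alone passed without those libraries; without PF+CS 4 there were 4 calls. The Pdia4 call was also lost in 5 of 10 other settings, given with the adjusted p in each: DESeq2 (0.0529), the groups compared alone (0.106), a replicate block (0.0865), the FPKM test (0.291), the 5 low libraries left out (0.285). Hspa5 was at log2 0.19 and Sdf2l1 at 0.35, neither called.

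The fitted levels were higher in PF+CS than in CS for all 10 genes, as for 51.3% of tested genes, with a median of 0.18. By edgeR 1 of 10 rose, against 1.79% of tested genes: Hsp90b1 by 0.18 (SE 0.042, adjusted p = 0.0188). Pdia6 was at log2 0.20 (adjusted p = 0.0575) and Pdia4 at 0.21 (adjusted p = 0.0854). In 3 genes the groups did not overlap in CPM, with PF+CS higher, as in 5.75% of tested genes. The Hsp90b1 call was lost without CS 1, CS 3, CS 4, PF+CS 1, PF+CS 2 or PF+CS 3 (adjusted p 0.0516 to 0.0979) and on FPKM values (adjusted p = 0.152). The number called was 0 without CS 1, CS 3, CS 4, PF+CS 1 or PF+CS 3, 2 without PF 4, and 6 without PF+CS 4, the lowest library of its group.

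CS against Veh gave 1 call among the 10: Hyou1 fell by 0.18 (SE 0.044, adjusted p = 0.0474, edgeR), while 0.589% of tested genes were called lower. Of the 10 changes 9 were below 0, with a median of −0.073 against −0.0014 over all tested genes. Hspa5 was not called, at log2 −0.14 (adjusted p = 0.496, edgeR). It passed only with CS and Veh compared alone (adjusted p = 0.0369). The Hyou1 call was lost without Veh 1, Veh 2, PF 2, PF 4, CS 1, CS 3, CS 4, PF+CS 2 or PF+CS 3 (adjusted p 0.0512 to 0.214), with RLE scaling (adjusted p = 0.0523), with a replicate block (adjusted p = 0.0606) and on FPKM values (adjusted p = 0.127). PF+CS against Veh also gave 1: Hsp90b1 rose by 0.16 (SE 0.042, adjusted p = 0.0178, edgeR), where 5.85% of tested genes were called higher. This call was lost without Veh 1, Veh 2 or PF+CS 3 (adjusted p 0.0687 to 0.0801) and on FPKM values (adjusted p = 0.229). The median of the 10 was 0.081. All contrasts reuse the same 4 groups, so they are not independent of each other.

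PF+CS against PF, the groups on the same ration, gave 0 calls among the 10 by edgeR, where 0.0948% of tested genes were called. All 10 changes were below 0, as were 52.7% of all tested (median −0.10, widest 95% bounds −0.54 and 0.086), 2 had an unadjusted p of at most 0.05 (7.85% of all tested), and DESeq2 and voom also called 0. The interaction, PF+CS minus PF set against CS minus Veh, gave 0 calls among the 10 by edgeR, where 0% of tested genes were called, with 0 unadjusted p of at most 0.05 and bounds of −0.46 to 0.41.

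**Figure D3:**
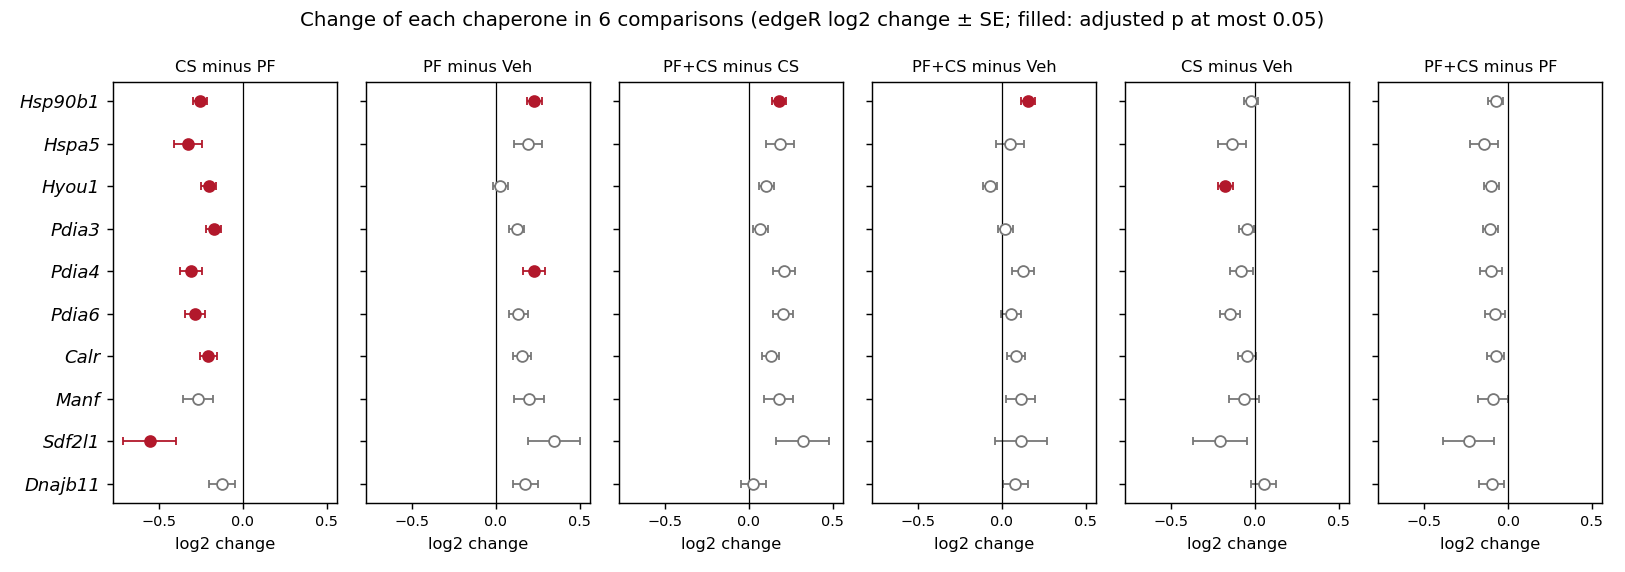
Log2 change of each chaperone (x axis) in the 6 contrasts between groups, with bars of 1 SE; filled points passed at an adjusted p of at most 0.05. In CS minus PF all 10 points lie below 0 and 8 are filled.

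By the median of the 10 genes, PF 3 and PF+CS 4 were the lowest libraries of their groups, though Dixon's test at 95% marked no library in any of the 40 gene and group combinations. The median log2 ratio of the 10 genes to the Veh mean was 0.21, 0.18 and 0.30 in PF 1, PF 2 and PF 4, but −0.0037 in PF 3. It was 0.16, 0.057 and 0.21 in PF+CS 1 to 3 and −0.082 in PF+CS 4. All 4 CS libraries lay between −0.095 and −0.07.

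**Figure D4:**
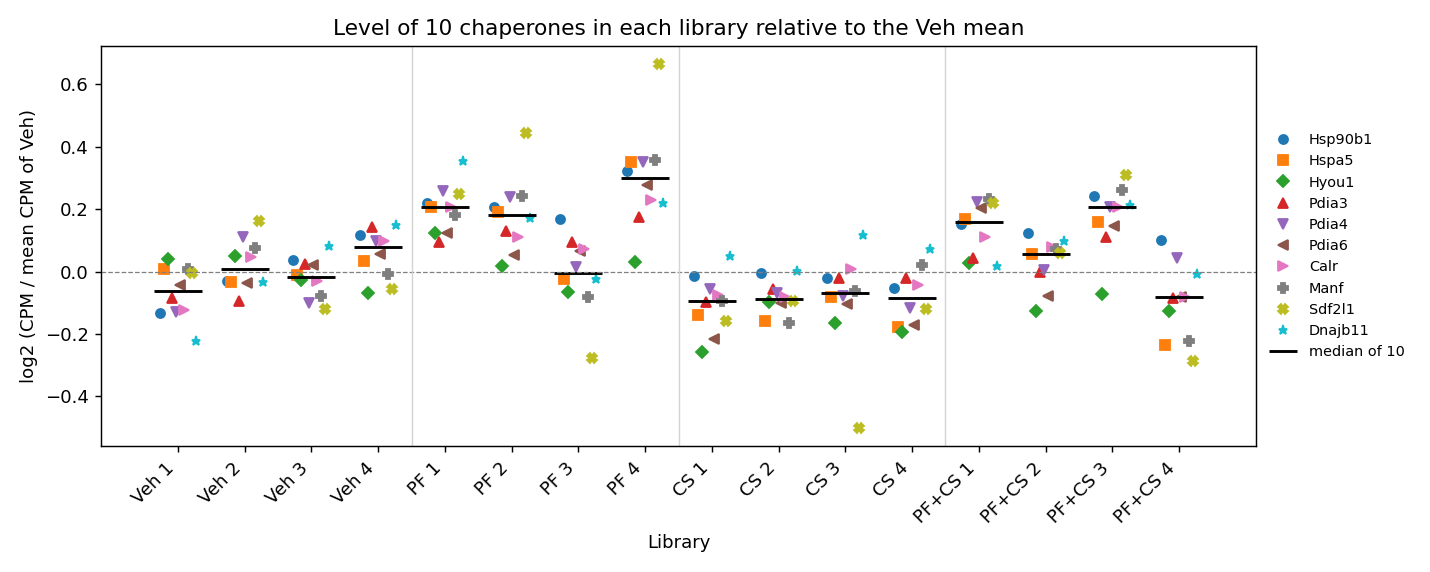
Log2 ratio of the CPM of each chaperone to its Veh mean (y axis) in the 16 libraries (x axis), with the median of the 10 as a line. The PF columns run high except PF 3, the 4 CS columns run low, and PF+CS 4 lies below the other PF+CS columns.

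The ER lists around the chaperones held few calls. In CS against PF, where 2.23% of all tested genes were called lower, 2 of 25 other ER folding factors fell (median −0.052): Creld2, a disulfide isomerase-like protein, at log2 −0.42 (adjusted p = 0.0496) and Uggt1, the glucosyltransferase that checks glycoprotein folding, at −0.19 (adjusted p = 0.0393). None of 16 sensors and factors of the unfolded protein response, 15 genes of ER-associated degradation, 19 of the translocon and signal peptidase or 17 of ER export were called, with medians between −0.059 and −0.04. Of 10 oligosaccharyltransferase genes 1 fell, Rpn1 at −0.16 (adjusted p = 0.0269). Cytosolic chaperones, a different compartment, fell in 14 of 18 (median −0.35), among them Hsp90aa1 at −0.33 (adjusted p = 0.000372) and Hsp90ab1 at −0.22 (adjusted p = 0.00082), the cytosolic HSP90s, Hsph1 at −0.52 (adjusted p = 0.00355), an HSP110, and Fkbp4 at −0.32 (adjusted p = 0.000886), an HSP90 co-chaperone. Of 9 mitochondrial chaperones 1 fell, Hspd1 at −0.18 (adjusted p = 0.0495). In PF against Veh, where 2.36% of all tested genes were called higher, 9 of 18 cytosolic chaperones rose (median 0.26), the smallest adjusted p being those of Hsp90aa1 at log2 0.24 (adjusted p = 0.00493), Hsph1 at log2 0.40 (adjusted p = 0.0169), Dnaja4 at log2 0.36 (adjusted p = 0.0171), Ahsa1 at log2 0.25 (adjusted p = 0.0187), and among the other ER and mitochondrial lists 1 gene did, Hspe1, the mitochondrial HSP10, at log2 0.28 (adjusted p = 0.0172). In PF+CS against Veh, where 5.85% of all tested genes were called higher and 4.47% lower, 5 of 18 cytosolic chaperones rose, among them Hsph1 at log2 0.32 (adjusted p = 0.0206), Hsp90aa1 at log2 0.15 (adjusted p = 0.0302), Bag3 at log2 0.36 (adjusted p = 0.0413), Ahsa1 at log2 0.19 (adjusted p = 0.0425). In that contrast Herpud1, a membrane protein of ER-associated degradation, rose by log2 0.36 (adjusted p = 0.0459). Lower there were Ppib, an ER prolyl isomerase, at log2 −0.18 (adjusted p = 0.042), Dnajc10, a disulfide reductase of the ER, at −0.15 (adjusted p = 0.0239), Vcp, the ATPase that extracts proteins from the ER, at −0.13 (adjusted p = 0.0381) and Ssr4, a translocon-associated subunit, at −0.36 (adjusted p = 0.00248). Copa and Sec13, coat proteins of ER transport, were also lower, at −0.15 (adjusted p = 0.004) and −0.23 (adjusted p = 0.0388), as was Grpel1 at −0.28 (adjusted p = 0.0114). In PF+CS against CS, where 1.79% were called higher, 4 of 18 cytosolic chaperones rose, Hsp90aa1 at log2 0.25 (adjusted p = 0.00401), Hsph1 at log2 0.45 (adjusted p = 0.01), Hsp90ab1 at log2 0.15 (adjusted p = 0.0158), Ahsa1 at log2 0.25 (adjusted p = 0.0245). In CS against Veh, where 0.589% were called lower, the only call in these lists outside the 10 was Grpel1, a mitochondrial co-chaperone, at −0.31 (adjusted p = 0.0286). The lists were chosen with earlier results of these data known and are described by their counts.

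**Figure D5:**
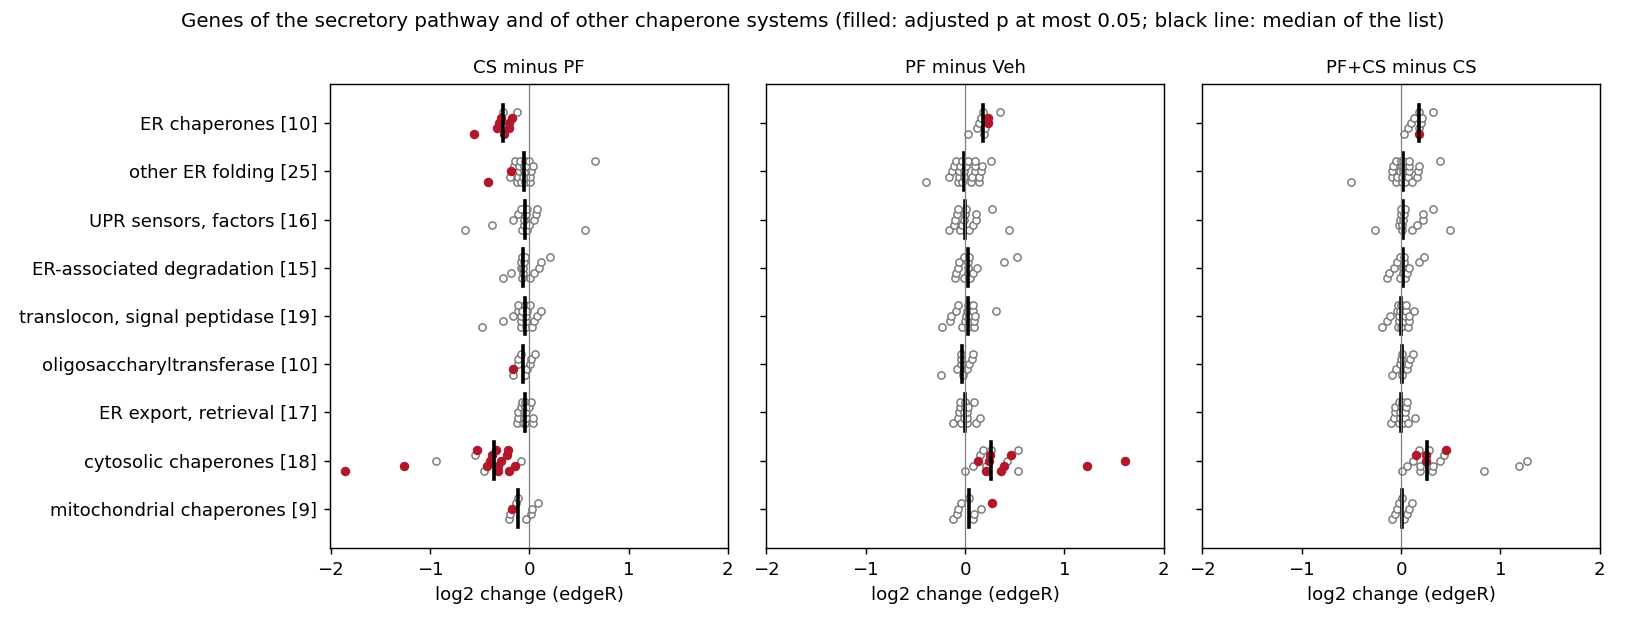
Log2 change (x axis) of each tested gene of 9 lists in CS minus PF, PF minus Veh and PF+CS minus CS; each point is a gene, filled points were called by edgeR, and black lines are list medians. In CS minus PF, 8 of 10 ER chaperones and 14 of 18 cytosolic chaperones are filled.

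Markers of cell types differed between the groups and are given beside the chaperones. The summed oligodendrocyte markers were 3060 to 3411 CPM in PF and 3678 to 4032 in CS, with 2 of 9 called higher. Endothelial markers were 149.8 to 198 CPM in PF and 202 to 248 in CS, with 1 of 9 called higher, and no marker in either list was at 0 in all libraries. Of the mural markers 2 of 7 were higher, and of the astrocyte markers 2 of 9 were lower. Of 10 neuron markers 1 was higher. Lower were 1 of 12 neuroendocrine, 1 of 9 microglial and 1 of 8 tanycyte and ependymal markers. In this contrast, CS against PF, 231 of the 14775 tested genes were called higher and 330 lower. In PF+CS against CS, the summed oligodendrocyte markers were 3037 to 3578 CPM in PF+CS, below every CS library, with 2 of 9 called lower. Higher there were 1 of 9 endothelial and 2 of 9 microglial markers. Of the 14775 tested genes, 264 were called higher and 128 lower there. Of 12 neuroendocrine markers, 3 were called lower in CS against Veh, as were 0.589% of tested genes. There 1 of 9 endothelial markers was higher, as were 45 of the 14775 tested genes. In PF+CS against Veh, 5 neuroendocrine markers were lower and 2 higher, and 3 of 9 endothelial markers were higher. Neuron, astrocyte, oligodendrocyte precursor and tanycyte markers had 1 lower call each there, microglial and mural markers 1 higher each, and oligodendrocyte markers 1 each way. Of tested genes 5.85% were called higher and 4.47% lower there. In PF against Veh, 2 of 7 mural markers were lower, and 1 of 9 endothelial markers was higher. Neuroendocrine, oligodendrocyte, microglial and tanycyte markers had 1 lower call each in that contrast. Of the 14775 tested genes, 348 were called higher and 189 lower in PF against Veh. The part of these markers in the chaperone results was not tested. Meningeal markers were low in 5 libraries (Veh 3, PF 1, PF 2, CS 2 and PF+CS 4). Within the low libraries the median of the 10 genes in CS against PF was log2 −0.25 (1 against 2 libraries) and within the high ones −0.24 (3 against 2), all 10 genes below 0 in both. The contrasts of PF+CS differed more between these sets, the low one holding PF+CS 4 alone from that group. PF+CS against CS had a median of −0.018 in the low set, with 6 genes below 0, and 0.22 in the high set. PF+CS against Veh had −0.10 and 0.12, and PF+CS against PF −0.22 and −0.046.

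Across the 16 libraries, each chaperone was compared with the mean of the other 9 as a description. Pearson's r was 0.58 for Hyou1, 0.62 for Dnajb11 and 0.81 to 0.93 for the rest. The mean of the 10 was then compared with 8661 genes whose log2 CPM averaged 4 or more. Genes of all the lists above and provisional gene models were left out, so listed chaperones such as Hsp90aa1 could not appear. Among the genes searched, the most alike were Hnrnpc, an RNA-binding protein, at r = 0.917, and Cct6a, a subunit of the cytosolic chaperonin, at 0.870. The list of the 10 most alike went on with Birc6, Kcnh1, Ccpg1, St13, Grb10, Snx1, Fam65b and P4ha1. The points share libraries and depth, and the likeness includes the difference between the groups.

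In the authors' deposited table for the CS and Veh columns, Hspa5 was at log2 −0.13 (adjusted p = 0.0119) and Hyou1 at −0.16 (adjusted p = 0.00776). Of the 7463 genes with an adjusted p there, 3.99% were at most 0.05. In the authors' deposited table for the PF and Veh columns, Hspa5 was at log2 0.17 (adjusted p = 0.0475) and Hsp90b1 at 0.22 (adjusted p = 0.00126), with 2.64% of 14226 genes passing. For the PF+CS and CS columns Hsp90b1 was at 0.17 (adjusted p = 1.67e-05), with 3.22% of 16185 genes passing. For the PF+CS and Veh columns it was at 0.15 (adjusted p = 0.0266), with 6.99% of 15059 genes passing. In the authors' deposited table for the CS and PF columns, 7 of the 10 had an adjusted p of at most 0.05, all lower in CS, as did 2.01% of the 14613 genes with an adjusted p there, led by Hsp90b1 at log2 −0.24 (adjusted p = 1.33e-09). Directions there were read against the count columns, and sizes were not set against those of edgeR.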

How the data were processed

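Hypothalamic bulk RNA-seq was analysed in 16 libraries, 4 per group, mapped to groups by the labels. The authors deposited raw counts per gene, another table of the same libraries that is named as counts but was read as FPKM from its fractional, length-dependent values, and 5 comparison tables with baseMean (a mean of normalised counts, an other unit), a log2 fold change, a test statistic (a score), a p-value and an adjusted p-value, whose columns are those DESeq2 writes. Per the labels' protocols, libraries were made with a SMARTer mRNA kit from 1 µg of RNA, and GRCm38 is the build per the submitters' processing notes. Neither aligner, counter nor strand is given in the sources used here.

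A single model over the 16 libraries was fitted to the counts with edgeR 4.0.16 in R 4.3.3 (TMM factors, filterByExpr with minimum count 10, robust quasi-likelihood test), and p-values were Benjamini-Hochberg adjusted over 14775 genes in each of 7 contrasts. The script was tested on simulated data. The SE is the absolute log2 change over the square root of the quasi-likelihood F statistic. Intervals are normal 95% intervals from that SE and can be narrower than the test implies. For Manf in PF+CS minus CS the interval is 0.0033 to 0.35, with an unadjusted edgeR p of 0.0583. Alternatives were DESeq2 1.42.0, voom in limma 3.58.1, RLE scaling, no filter, the groups alone, a replicate block, log2(FPKM + 0.1) in limma, a meningeal marker covariate, leaving out libraries low in those markers, a length and GC offset, and leaving out each library. Named genes are the 10 chaperones, up to 4 called members per other list and contrast, and the 10 genes outside all lists most like their mean. The members and lists were chosen with earlier results of these data known. No pair of libraries within a group matched within sampling noise; pairs between groups were not compared. Library totals were 6008564 to 12880459 counts, so low genes such as Sdf2l1 are the least precise. Of columns from another series there were 0, and 27 date-like gene names were never named. Positions are from GENCODE M21 and promoters from RefSeq.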

Additional observations from a re-analysis of the deposited data

How the results depend on the processing

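There were 1810 values of the 10 genes under other settings (16 left-out libraries, and 10 alternatives in 6 contrasts or 9 in the interaction). Of these, 1630 kept their direction and side of the threshold, 109 lost a call and 22 gained one. The other 49 were uncalled values. They changed sign, except Sdf2l1 in CS minus Veh with DESeq2, which had no adjusted p. Of the called values 0 reversed. The number of chaperones called in CS minus Veh, 1 of 10, became 0 with RLE scaling, the replicate block or FPKM values and 2 with the groups compared alone. In PF minus Veh, 2 became 1 with DESeq2, the groups compared alone, the replicate block or with the 5 libraries poorest in meningeal markers left out. It became 0 on FPKM values and 3 with the meningeal covariate, where Calr was added (adjusted p = 0.0476). In PF+CS minus Veh, 1 became 0 on FPKM values. In CS minus PF, 8 became 7 with DESeq2 or no filter on low counts and 6 with voom. It became 5 with the replicate block or the length and GC offset, 3 without the 5 low libraries and 2 on FPKM values. With the groups compared alone it stayed 8, but with Manf in place of Sdf2l1. With the meningeal covariate it also stayed 8, with Manf in place of Hspa5. In PF+CS minus CS, 1 became 2 with no filter on low counts, the groups compared alone or the meningeal covariate, 3 without the 5 low libraries and 0 on FPKM values. The causes were not tested; the sets without 5 libraries also hold fewer samples. Leaving out 1 library at a time gave 0 to 1 calls in CS minus Veh, 1 to 4 in PF minus Veh, 0 to 1 in PF+CS minus Veh, 2 to 9 in CS minus PF, 0 to 0 in PF+CS minus PF, 0 to 6 in PF+CS minus CS and 0 to 0 in the interaction. For same-numbered libraries, the correlation of their deviations from the group means was −0.42 to 0.33 over 24 pairs, with 5 over 0.1. For pairs with other numbers it was −0.34 to 0.39 over 72 pairs, with 22 over 0.1. These correlations cannot tell whether same-numbered samples shared a cage or day, which the labels do not state. The block is given as a setting. Over all genes, the number called moved by more than 1.5 times from 132 in CS minus Veh (282 with DESeq2, 257 with the groups compared alone, 20 with the FPKM test, 209 with a meningeal covariate, 342 with the 5 low libraries left out); from 537 in PF minus Veh (284 with the groups compared alone, 136 with the FPKM test); from 561 in CS minus PF (178 with the FPKM test); from 14 in PF+CS minus PF (29 with DESeq2, 7 with the groups compared alone, 0 with the FPKM test, 0 with the 5 low libraries left out, 3 with a length and GC offset); from 392 in PF+CS minus CS (598 with the groups compared alone, 223 with a replicate block, 99 with the FPKM test, 1013 with the 5 low libraries left out). Leaving out 1 library moved these all-gene counts, on which the background shares rest, over 10 to 242 in CS minus Veh, 111 to 810 in PF minus Veh, 710 to 2007 in PF+CS minus Veh, 190 to 841 in CS minus PF, 1 to 24 in PF+CS minus PF and 113 to 961 in PF+CS minus CS. Depth limits Sdf2l1 most, with as few as 43 counts in a library. Direction words rest on the labels of PF and CS.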
